A study of Mus musculus with 16 samples.

Results

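B cells and the plasma cells that descend from them are the source of antibodies. Described here are 7 genes of these cells in the livers of old mice bred to have or to lack the glucagon receptor in hepatocytes. The genes were chosen by name from the 41079 genes of the counts table: Cd79a, Cd79b and Ms4a1, whose proteins sit at the B cell surface, Ighm and Igkc, which encode the constant parts of an antibody's mu heavy chain and kappa light chain, and Jchain and Mzb1, which serve antibody assembly and secretion. All mice were on the C57BL/6J background, were 20 to 22 months old and carried a Gcgr gene with LoxP sites around the exons that Cre removes. LKO mice also carried Cre under the Albumin promoter, which is active in hepatocytes, and CRE- mice were the controls without Cre. There were 4 groups of 4 mice, male CRE-, male LKO, female CRE- and female LKO, and polyadenylated RNA from each liver was sequenced. B cells and plasma cells do not use the Albumin promoter, so their own Gcgr gene was not a target in any group. The comparisons ask whether loss of the hepatocyte receptor goes with a different level of these genes within each sex.

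A B cell carries an antibody as its antigen receptor, with Cd79a and Cd79b as the subunits that pass the signal into the cell. After activation a B cell can switch its heavy chain from the mu class to the gamma or alpha classes. It can also become a plasma cell, which secretes antibody. The liver receives blood from the gut and holds resident lymphocytes, and hepatocytes carry antibodies of the alpha class into bile through the receptor Pigr.

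Between 33268424 and 56488920 reads per library were assigned to genes. Levels are given as CPM, counts scaled to a common library size and normalized between libraries by the trimmed mean of M values (TMM), in the order of replicates 1 to 4, which name mice and have no order. The libraries were liver: Alb, the serum protein made by hepatocytes, was at 41700 CPM or more in all 16. The Y-linked Ddx3y was at 38.5 CPM or more in the 8 male libraries and at 0 in the 8 female ones, where a count of 0 allows up to 3 reads. Gcgr was at 190, 193, 127 and 190 CPM in male CRE- livers and at 117, 136, 130 and 160 CPM in male LKO livers. Female CRE- livers were at 162, 208, 201 and 180 CPM and female LKO livers at 48.8, 132, 119 and 93.6 CPM. Every library thus still held Gcgr reads, and the groups overlapped in males and not in females. The counts are of the whole gene, so they do not separate the exons that Cre removes from the others. The female log2 fold change of Gcgr was -0.93 (SE 0.25), lower in 4 of 4 LKO livers, with an edgeR adjusted p of 0.0443. It was -0.37 (SE 0.24) in males, with an edgeR adjusted p of 0.671. Here and below, such a count is of the LKO livers above or below the mean of the controls of their sex. The female call was lost without male CRE- 1 or 4, without any 1 of the male LKO or the female CRE- libraries, and without female LKO 1, 3 or 4, where the edgeR adjusted p lay between 0.0506 and 0.136. With male CRE- 1 and 4 counted as 1 sample the edgeR adjusted p was 0.0569.

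Some libraries stood apart in these genes. Male CRE- 1 and male CRE- 4 shared the antibody gene segments they used most, more closely than any other pair of libraries, as described with those segments. The labels number them as separate biological replicates, and whether the pair shares a mouse was not tested, so results are also given with the pair counted as 1 sample where a call was lost, a male value turned in sign or a male fold change of the 7 genes moved by over 1.5 times. This was chosen after seeing the data. Female LKO 3 had the highest value of the 16 libraries for 5 of the 7 genes and female LKO 1 for the other 2. Female LKO 4 had the lowest value for 4 of the 7 and was among the lowest 3 for 6. The summed level of the 7 genes was 808 CPM in female LKO 3, at most 520 CPM in the other 15 libraries and 154 CPM in male CRE- 3, the lowest. Within the female LKO group it ranged from 212 to 808 CPM, so the mice that define the female comparison include both the richest library and 1 of the poorest.

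All 7 genes passed the filter on low counts, as did 16742 genes in all. In RPKM, CPM divided by the transcript length in kilobases, which allows genes to be compared with each other, their mean levels ran in 1 order in all 4 groups: Igkc, Ighm, Jchain, Cd79a, Cd79b, Mzb1 and Ms4a1. In male CRE- livers the mean was 325 RPKM for Igkc, 87.1 for Ighm and 17.1 for Jchain. The surface genes were far lower there, at 4.93 RPKM for Cd79a, 4.42 for Cd79b and 1.17 for Ms4a1, with Mzb1 at 2.21. Reads of the antibody chains, whose membrane and secreted forms were not separated, thus outweighed those of the 3 surface genes. In the ranges of the 4 libraries, Cd79a overlapped Cd79b and Cd79b overlapped Mzb1 in all 4 groups, while Ighm lay above Jchain without overlap in all 4. Igkc lay above Ighm without overlap in 3 groups and overlapped it in female LKO livers.

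None of the 7 genes was called different between LKO and CRE- livers in either sex by the quasi-likelihood test of edgeR at an adjusted p under 0.05, with p-values adjusted over all genes tested by the Benjamini-Hochberg method. In males the count was 0 of 7 at the adjusted threshold, where 0.454% of all genes passed, 0 at an unadjusted p under 0.05 (9.53% of all genes), 0 by DESeq2 (2.02%) and 0 by limma-voom with sample quality weights (0.884%). In females it was 0 of 7 at the adjusted threshold (4.24% of all genes), 1 at an unadjusted p under 0.05 (21.4%), 0 by DESeq2 (10.8%) and 1, Igkc, by limma-voom (11.8%). LKO and CRE- values overlapped for 7 of 7 genes in both sexes, where 6.49% of all genes did not overlap in males and 11.6% did not in females. The median log2 fold change of the 7 genes was 0.28 in males, beside -0.01 for all genes tested, and 0.49 in females, beside 0.04. The point estimate was positive for 6 of 7 genes in males and for 7 of 7 in females. In bulk liver RNA, a difference in the number of B or plasma cells and a difference in RNA per cell cannot be told apart.

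**Figure D1:**
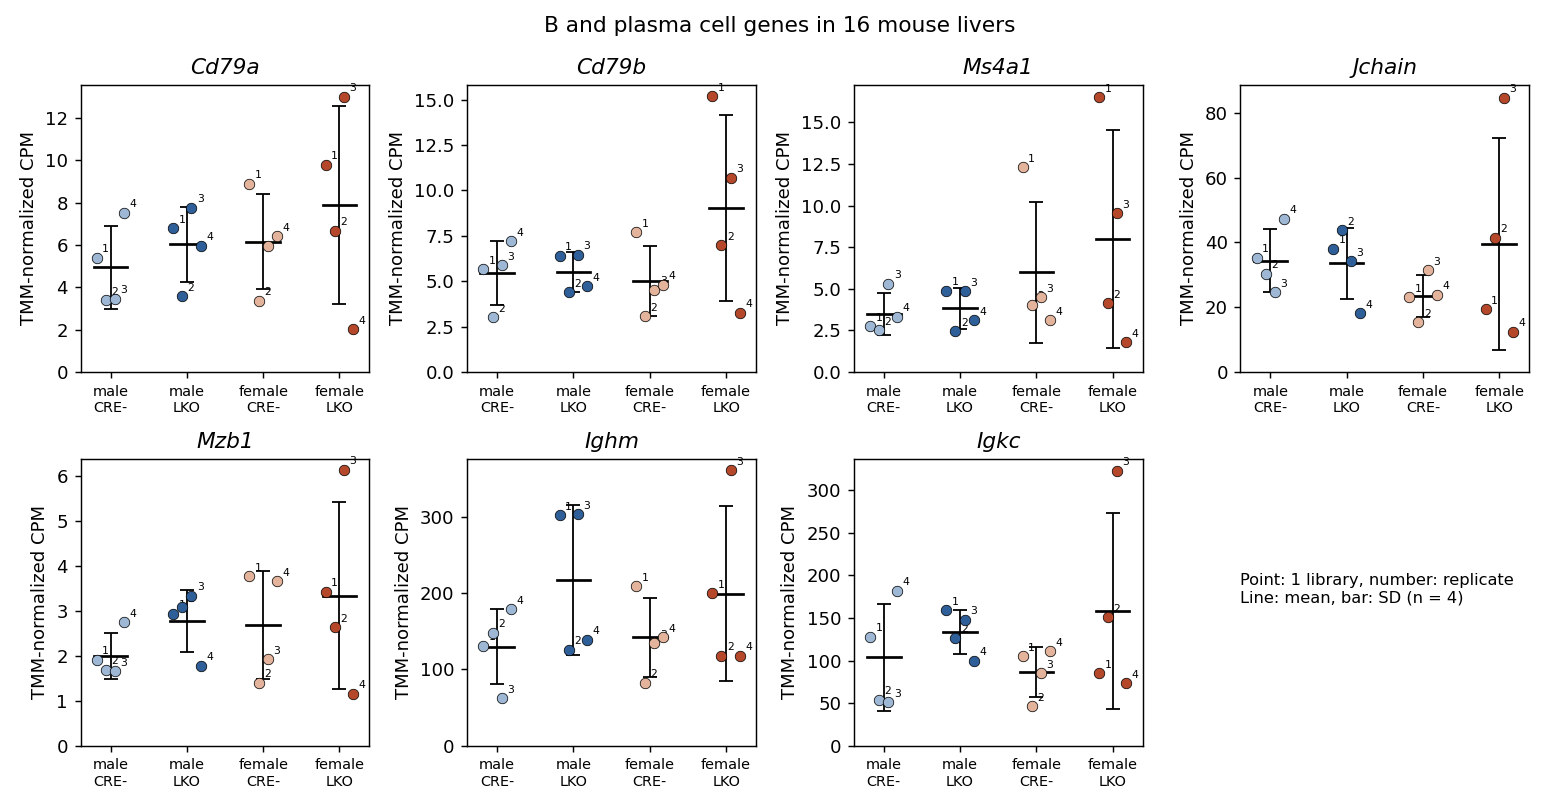
TMM-normalized CPM of the 7 genes (vertical axes) in the 4 groups (horizontal axes), with a point for each library labelled by its replicate number, a line at the mean and a bar for the SD of the 4 libraries. LKO and CRE- points overlap in every panel, and female LKO replicates 1, 3 and 4 spread widely.

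Cd79a, on chromosome 7 (24596922 to 24601283), encodes the alpha signalling subunit of the B cell receptor. It was at 5.4, 3.39, 3.46 and 7.51 CPM in male CRE- livers and at 6.79, 3.58, 7.75 and 5.97 CPM in male LKO livers. Female CRE- livers held 8.89, 3.37, 5.96 and 6.41 CPM, and female LKO livers 9.79, 6.66, 13 and 2.02 CPM. Both the highest and the lowest value of the 16 were thus in female LKO livers, replicates 3 and 4, and they differed 6.4-fold. Males had a log2 fold change of 0.29 (SE 0.44, higher in 3 of 4 LKO livers, edgeR adjusted p = 0.868), or 0.43 with male CRE- 1 and 4 as 1 sample, 0.13 without male CRE- 3 and 0.56 without male CRE- 4. Females had 0.35 (SE 0.44, higher in 3 of 4, edgeR adjusted p = 0.701), which turned to -0.01 without female LKO 3 and was 0.68 without female LKO 4.

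Cd79b, on chromosome 11 (106202167 to 106205388), encodes the beta signalling subunit that pairs with Cd79a. Its level was 5.66, 3.01, 5.88 and 7.21 CPM in male CRE- livers and 6.41, 4.41, 6.46 and 4.73 CPM in male LKO livers. Female CRE- livers held 7.7, 3.08, 4.53 and 4.81 CPM, and female LKO livers 15.2, 6.98, 10.7 and 3.27 CPM. Female LKO 1 and 3 were above every other library, female LKO 2 was within the range of its controls, and female LKO 4 was near their lowest. The female log2 fold change was 0.85 (SE 0.39, higher in 3 of 4 LKO livers) with an edgeR adjusted p of 0.222, and it was the 1 member under 0.05 before adjustment, at 0.0458. Without female LKO 1 it was 0.50, with an edgeR adjusted p of 0.596. In males it was 0.02 (SE 0.39, higher in 2 of 4, edgeR adjusted p = 0.997) and 0.0972 with male CRE- 1 and 4 as 1 sample, and its sign turned with the normalization.

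Ms4a1, on chromosome 19 (11227043 to 11243513), encodes CD20, a membrane protein of mature B cells that plasma cells lose. It was at 2.76, 2.5, 5.3 and 3.33 CPM in male CRE- livers and at 4.89, 2.46, 4.87 and 3.13 CPM in male LKO livers. In female CRE- livers it was at 12.3, 4.05, 4.48 and 3.13 CPM, and in female LKO livers at 16.5, 4.14, 9.53 and 1.79 CPM. It spanned the widest range of the 7 genes, 9.22-fold over the 16 libraries, and each female group had replicate 1 as its highest library. For males the log2 fold change was 0.15 (SE 0.55, higher in 2 of 4, edgeR adjusted p = 0.953), and it was 0.0825 with male CRE- 1 and 4 as 1 sample. For females it was 0.42 (SE 0.55, higher in 2 of 4, edgeR adjusted p = 0.716). Without female LKO 1 the female estimate was -0.20, and without female CRE- 1 it was 1.04.

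Ighm, on chromosome 12 (113382446 to 113386350), encodes the mu constant region of naive B cells and of the first antibodies of a response. It was at 131, 148, 62 and 179 CPM in male CRE- livers and at 302, 126, 303 and 139 CPM in male LKO livers. Female CRE- livers were at 209, 82.8, 134 and 142 CPM, and female LKO livers at 200, 118, 361 and 118 CPM. Male LKO 1 and 3 stood above all 4 male controls, and male LKO 2 and 4 stood among them. In males the log2 fold change was 0.75 (SE 0.42, higher in 3 of 4, edgeR adjusted p = 0.602). It was 0.49 (SE 0.42, higher in 2 of 4, edgeR adjusted p = 0.549) in females, and there it was 0.02 without female LKO 3 and 0.74 without female CRE- 1.

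Igkc, on chromosome 6 (70703419 to 70703738), encodes the kappa constant region that most mouse antibodies carry. The level in male CRE- livers was 128, 54.2, 51.4 and 182 CPM, and in male LKO livers 159, 127, 148 and 100 CPM. In female CRE- livers it was 105, 46.3, 84.9 and 111 CPM, and in female LKO livers 85.4, 151, 323 and 73.6 CPM. The male controls split into replicates 1 and 4, the 2 highest, and replicates 2 and 3, the 2 lowest, and all 4 male LKO livers lay above replicates 2 and 3 and below replicate 4. The male log2 fold change was 0.36 (SE 0.46, higher in 3 of 4, edgeR adjusted p = 0.835), or 0.61 with replicates 1 and 4 as 1 sample. It ran from 0.11 without male CRE- 3 to 0.78 without male CRE- 4. The female one was 0.86 (SE 0.46, higher in 2 of 4, edgeR adjusted p = 0.301), and without female LKO 3 it was 0.24. Limma-voom, which weights the libraries by their quality, gave a female log2 fold change of 1.42 with a limma adjusted p of 0.034.

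Jchain, on chromosome 5 (88667663 to 88675667), encodes the joining chain that links antibodies of the mu and alpha classes into polymers, the form that Pigr carries. It was at 35.3, 30.3, 24.7 and 47.3 CPM in male CRE- livers and at 38.1, 43.7, 34.2 and 18.1 CPM in male LKO livers. Female CRE- livers held 23.1, 15.3, 31.4 and 23.9 CPM, and female LKO livers 19.4, 41.5, 84.7 and 12.4 CPM. Female LKO 3 was the highest and female LKO 4 the lowest of the 16, and the other 14 libraries lay between 15.3 and 47.3 CPM. The log2 fold change was -0.04 (SE 0.45, higher in 2 of 4, edgeR adjusted p = 0.989) in males and 0.05 with male CRE- 1 and 4 as 1 sample. Among females it was 0.76 (SE 0.45, higher in 2 of 4, edgeR adjusted p = 0.36), and without female LKO 3 it was 0.06.

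Mzb1, on chromosome 18 (35780318 to 35782420), encodes a protein of the endoplasmic reticulum that helps antibody chains to assemble. It was at 1.91, 1.69, 1.66 and 2.74 CPM in male CRE- livers and at 2.93, 3.08, 3.33 and 1.78 CPM in male LKO livers. Female CRE- livers were at 3.77, 1.4, 1.92 and 3.66 CPM, and female LKO livers at 3.42, 2.64, 6.13 and 1.16 CPM. Male LKO 1, 2 and 3 were above all 4 male controls and male LKO 4 was among them. Its log2 fold change was 0.48 (SE 0.43, higher in 3 of 4, edgeR adjusted p = 0.764) in males. That of females was 0.32 (SE 0.43, higher in 2 of 4, edgeR adjusted p = 0.725), which turned to -0.17 without female LKO 3 and was 0.61 without female LKO 4.

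The difference between the female and the male fold change was called for 0 of 7 genes, with 0 at an unadjusted p under 0.05, 0 by DESeq2 and 0 by limma-voom. Over all genes, 0.0% passed this test, 16% had an unadjusted p under 0.05, 2.22% passed in DESeq2 and 0.173% in limma-voom. With all libraries the largest differences were those of Cd79b, 0.83 (SE 0.55) on the log2 scale with an edgeR adjusted p of 0.447, and Jchain, 0.79. Without female LKO 1 that of Cd79b was 0.49, and without female LKO 3 that of Jchain was 0.11. The median over the 7 genes was 0.27, beside 0.04 for all genes. Between the control groups of the sexes, female CRE- against male CRE-, the count by edgeR was also 0 of 7, with 0 at an unadjusted p under 0.05, 0 by DESeq2 and 0 by limma-voom, where 0.92%, 12.7%, 3.02% and 1.97% of all genes passed. With all libraries the largest control differences were those of Ms4a1, 0.79 (SE 0.55) with an edgeR adjusted p of 0.554, and Jchain, -0.56 (SE 0.45) with an edgeR adjusted p of 0.613. Without female CRE- 1 that of Ms4a1 was 0.17, and without male CRE- 4 that of Jchain was -0.36.

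The class of heavy chain differed widely between mice. Of the reads on the heavy chain constant genes, 4729 to 35863 per library, Ighm took 41.0, 56.8, 50.4 and 44.8% in male CRE- livers and 74.9, 43.7, 88.5 and 76.4% in male LKO livers. Igha, the alpha class of mucosal surfaces, took 40.5, 36.0, 39.6 and 37.7% in male CRE- livers and 12, 45.4, 0.732 and 5.82% in male LKO livers. All 4 male controls were thus alike, with 36.0% or more of the reads on Igha. Its share was 12% or less in 3 male LKO livers and highest in male LKO 2. By level the order differed, with Igha at 48.2 CPM in male LKO 1 and 48.7 CPM in male CRE- 3. It was at 131 CPM in male LKO 2 and 151 CPM in male CRE- 4. In male LKO 3 its share was 0.732% of 13793 reads, with a Wilson 95% interval of 0.603 to 0.889%. The mean Ighm share was 22.6 percentage points higher and the mean Igha share 22.5 points lower in male LKO livers, with the groups overlapping because of male LKO 2. An exact permutation test, two-sided over the 70 ways to split 8 mice into groups of 4 and with 0.0286 as its smallest p, gave p = 0.114 for Ighm and p = 0.143 for Igha, and both had a Benjamini-Hochberg adjusted p of 0.547 over the 16 such tests. Without male LKO 2 the differences were 31.7 and -32.3 points, each with an exact permutation p of 0.0286 before adjustment, the smallest that 4 against 3 allows, but this removes the 1 LKO liver that overlapped. Without male LKO 3 they were 16.7 and -17.4 points, and over the 8 fits without 1 library the exact permutation p ran from 0.0286 to 0.2 for both.

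In females the classes were mixed in both groups. Ighm took 83.3, 61.7, 51.9 and 58.0% in CRE- livers and 83.7, 34.8, 55.0 and 65.8% in LKO livers. Igha took 9.50, 33.5, 40.6 and 28.9% in CRE- livers and 4.77, 46.5, 27.2 and 6.90% in LKO livers. Neither set them apart, and the exact permutation p was 0.857 for Ighm and 0.571 for Igha. The gamma classes together (Ighg1, Ighg2b, Ighg2c and Ighg3) took 6.54, 3.93, 6.61 and 12.4% in female CRE- livers and 7.98, 18, 16.8 and 26.9% in female LKO livers. Of the LKO livers, 3 were above every control and 4 of 4 were above the control mean, with a difference of 10.04 points, an exact permutation p of 0.0571 and an adjusted p of 0.547 over the 16 tests. Without female LKO 1, the LKO liver that overlapped, the difference was 13.2 points, and without female LKO 4 it was 6.89 points. Over the 8 fits without 1 library the exact permutation p ran from 0.0286 to 0.143. In males the gamma share was 17.4, 6.70, 5.94 and 16.8% in CRE- livers and 11.9, 10.1, 10.2 and 9.49% in LKO livers, a difference of -1.30 points that became 0.504 points with male CRE- 1 and 4 as 1 sample. Kappa took 83.8 to 97.0% of light chain constant reads in all 16 libraries. Reads that fit several similar genes equally well were not counted, so this share is of the reads that could be placed.

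**Figure D2:**
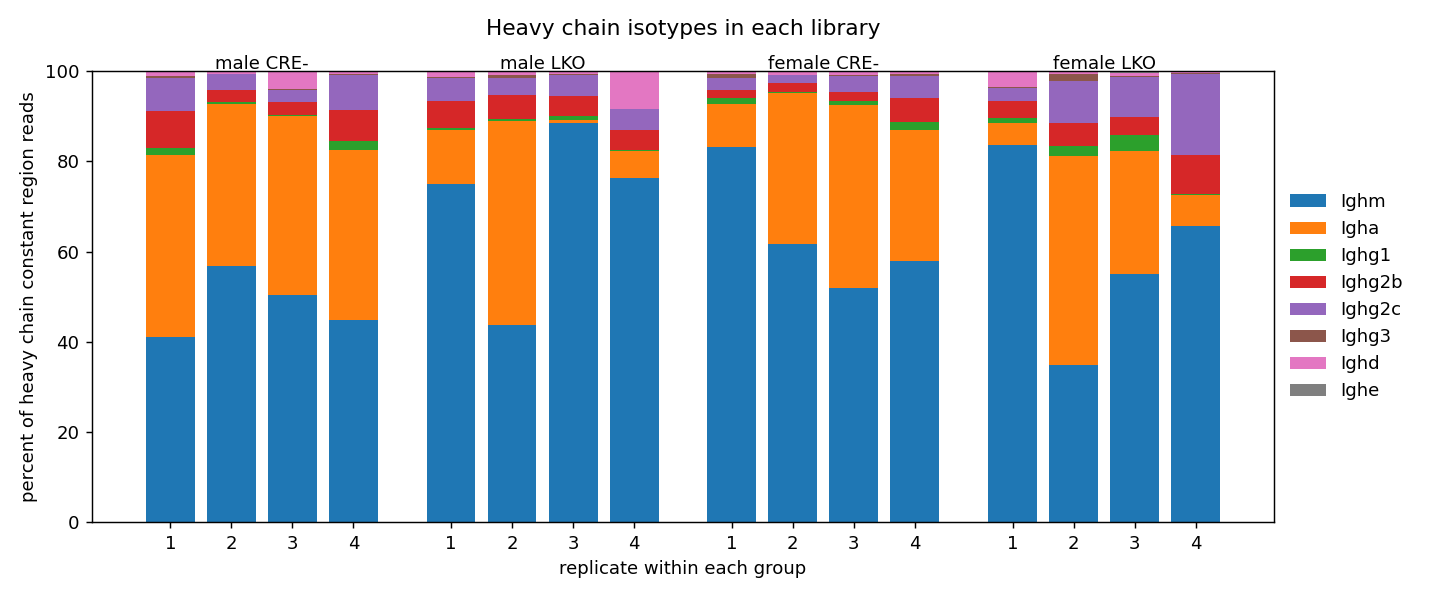
Percent of heavy chain constant region reads (vertical axis) on each gene, stacked, in the 16 libraries by group and replicate (horizontal axis). Igha takes 36.0 to 40.5% in the 4 male CRE- libraries and 0.732 to 45.4% in the male LKO ones.

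Each B cell joins 1 variable (V) segment to its heavy chain and 1 to its light chain, and many cells can use the same segment, so reads per segment show which segments the antibody RNA holds and do not separate cells. The table holds 348 V segments, of which 183 are Ighv (heavy chain), 162 Igkv (kappa) and 3 Iglv (lambda). Reads that fit several similar segments equally well were not counted, so the shares are of the reads that could be placed. There were 960 to 6147 Ighv reads and 1847 to 12879 Igkv reads per library. The effective number of segments, the inverse of the summed squared shares, was 13.9 to 31.7 for Ighv and 6.95 to 36.7 for Igkv, so no library was taken over by 1 segment. The leading Ighv segment differed from mouse to mouse, with 13 different leaders in 16 libraries. In the kappa locus, Igkv3-2 led in 9 of 16 libraries and reached 34.3% in female CRE- 1 (Wilson 95% interval 33 to 35.8%). The Wilson intervals given here cover counting error only and take each read as independent, so they are too narrow where both reads of a fragment were counted. The share of the leading segment and the effective number did not pass in either sex or locus, with an adjusted p of at least 0.547 by the exact permutation test.

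Male CRE- 1 and male CRE- 4 were led by the same segments in both loci. Ighv1-82 took 19.9 and 17.6% of Ighv reads in these 2 libraries (565 and 482 reads), with Wilson 95% intervals of 18.5 to 21.5% and 16.3 to 19.1%. In the other 14 libraries it took at most 3.36%, and in male CRE- 2 and 3 it had 20 and 26 reads. Igkv19-93 took 20.2 and 18.9% of Igkv reads in the pair (922 and 1164 reads), at most 5.52% elsewhere, and had 24 and 46 reads in male CRE- 2 and 3. The second segments were also shared, Ighv1-53 in the heavy chain and Igkv1-110 in the kappa chain. Across segments, the shares of the pair had a Pearson r of 0.984 for Ighv and 0.992 for Igkv, where segments are not independent of each other. The highest r among the other 119 pairs of libraries was 0.908 for Ighv and 0.869 for Igkv, and the medians were 0.473 and 0.497. Among the 64 pairs of a male and a female library, which are different mice, the highest r was 0.884 and 0.869. The chi-square statistic of the counts per segment was 2.69 and 2.65 for the pair, at least 6.09 and 10.5 in the other pairs, and 14.8 and 28.2 at their median. By Spearman's rho, which weights rare segments equally, the pair had 0.92 for Ighv, which 1 other pair reached, and 0.949 for Igkv, which none of the others reached. The T cell receptor segments (Trbv) gave an r of 0.936 for the pair, from few reads, and at most 0.836 for the others. By rho (0.719, which 13 other pairs reached) and by chi-square (0.314, where another pair had 0) the pair was not the closest in Trbv. Over all genes the chi-square statistic per gene of the pair was 96.8, the lowest of the 6 pairs of male controls, where the next was 126.6. In the other groups 4 pairs were lower, down to 36.9 for male LKO 2 and 4, and the highest was 565.1 for female LKO 1 and 3. Counting the pair as 1 sample left 0 of the 7 genes called in either sex and 46 genes of the whole table in males, in place of 76.

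**Figure D3:**
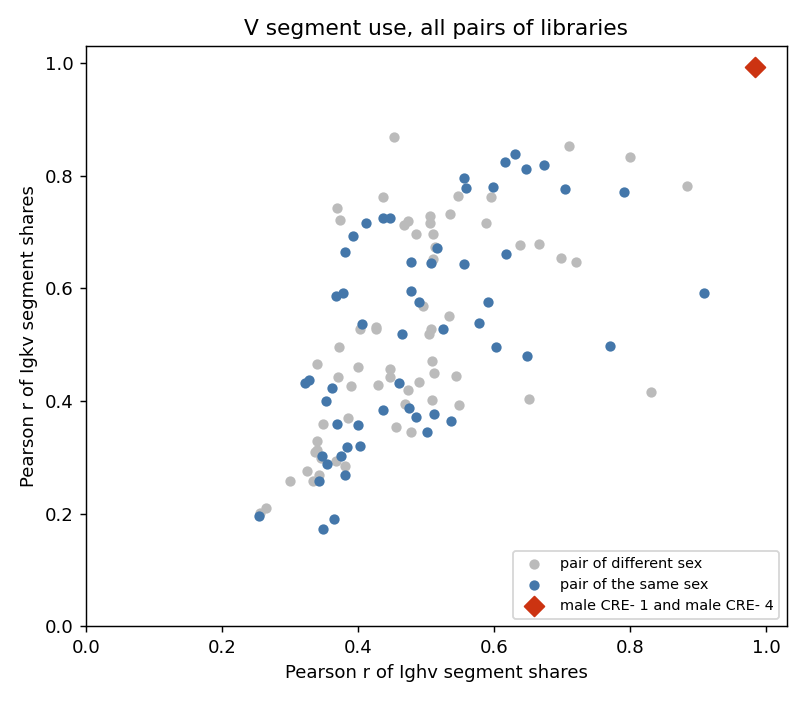
Pearson r of segment shares between 2 libraries for Ighv (horizontal axis) and Igkv (vertical axis), with a point for each of the 120 pairs of libraries, coloured by whether the sexes match. The pair of male CRE- 1 and 4 lies at 0.984 and 0.992, and no other pair exceeds 0.908 or 0.869.

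The ends of 3 V segments show where they are joined. Ighv1-82 and Igkv19-93 are shown because they lead in male CRE- 1 and 4, and Igkv3-2 because it leads in most libraries. Each line, read 5′ to 3′ on the gene's strand of GRCm39, holds the last 60 coding bases of the segment and then the unrearranged genome that follows it, which joining removes. Capitals mark exact matches to the recombination signal at its set place, CACAGTG directly after the coding end and ACAAAAACC after a spacer of 12 bases in Igkv or 23 bases in Ighv. The first lies at chr12:115916119-115916217 on the minus strand, the next at chr6:68713253-68713340 on the minus strand and the last at chr6:70675992-70676079 on the plus strand.
Ighv1-82: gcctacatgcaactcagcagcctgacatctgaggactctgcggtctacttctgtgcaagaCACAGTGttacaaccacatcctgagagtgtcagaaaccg
Igkv19-93: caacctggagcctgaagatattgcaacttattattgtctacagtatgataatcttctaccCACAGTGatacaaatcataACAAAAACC
Igkv3-2: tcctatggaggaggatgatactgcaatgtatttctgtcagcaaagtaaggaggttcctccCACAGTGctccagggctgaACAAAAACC
All 3 held the first motif, and the 2 kappa segments held the second as well. In the whole table the first motif was at its place in 84 of 183 Ighv segments (45.9%) and 99 of 162 Igkv segments (61.1%), and the second in 1.64% and 22.2%. A segment without a match lacks only these letters at this place.

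Of the 348 V segments, 144 passed the filter, and edgeR called 0 in males (20 at an unadjusted p under 0.05, 8 by DESeq2 and 0 by limma-voom). Of all genes, 0.454% passed by edgeR in males, 9.53% unadjusted (13.9% of the segments), 2.02% by DESeq2 and 0.884% by limma-voom. The log2 fold changes of the segments had a median of 0.28. In females it called 4, all of them higher (9 by DESeq2, 17 by limma-voom and 25 at an unadjusted p under 0.05), with a median of 0.93. The 4 are 2.78% of the segments tested, beside 4.24% of all genes, and the 25 are 17.4%, beside 21.4%. These were Igkv2-137, Igkv12-89, Igkv4-59 and Ighv9-3. Igkv4-59 was at 0.51, 0.234, 0.455 and 0.428 CPM in female CRE- livers and at 1.91, 0.698, 31.6 and 0.347 CPM in female LKO livers, so 1 liver held most of its reads. Igkv12-89 was at 11.6 and 6.88 CPM in female LKO 1 and 3 and at most 0.174 CPM in the other female livers. Of the male livers, the control male CRE- 2 held 4.05 CPM of it, and the others held at most 0.27 CPM. For Ighv9-3 the levels were 0.51, 0.409, 1.01 and 0.855 CPM in female CRE- livers and 4.23, 1.4, 2.56 and 0.926 CPM in female LKO livers. Igkv2-137 was at 0.177, 0.195, 0.575 and 0.267 CPM in female CRE- livers and at 2.67, 1.2, 3.16 and 5.79 CPM in female LKO livers, which did not overlap. Among male livers it reached 2.11 CPM in male CRE- 4 and 1.7 CPM in male LKO 1, both above female LKO 2. In male livers Ighv9-3 was at 1.09 to 2.11 CPM and Igkv4-59 at 0 to 2.14 CPM. The female count was 0 without female CRE- 2 or 4, 1 without male LKO 2, 3 or 4, female CRE- 1 or 3, or female LKO 1 or 3, 2 without male CRE- 1 or 4 and with that pair as 1 sample, and 8 without female LKO 4. The male count was 1 without female CRE- 1 or 2 and 1 with no filter on low counts. With each sex fitted alone edgeR called 4 in males and 1 in females, and with at least 10 counts in every library, which left 23 segments, 0 and 1.

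Some other genes of B cells were higher in female LKO livers. Of 30, edgeR called 3 higher and 0 lower in females (15 at an unadjusted p under 0.05, 6 by DESeq2, 7 by limma-voom), where 4.24%, 21.4%, 10.8% and 11.8% of all genes passed. The median log2 fold change was 0.83, beside 0.04 for all genes. In males edgeR called 0 of 30 (0 at an unadjusted p under 0.05, 0 by DESeq2, 0 by limma-voom), with a median of -0.07. Of all genes, 0.454%, 9.53%, 2.02% and 0.884% passed in males, in the same order. These shares of all genes in each sex also stand beside the counts of every list below. The difference between the sexes was called by edgeR for 0 of 30, with 10 at an unadjusted p under 0.05, 1, Ly6d, by DESeq2 and 0 by limma-voom. The female count was 1 without male LKO 3 or 4, any 1 of the female CRE- libraries, or female LKO 1 or 3, and it was 5 without female LKO 2.

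Ly6d, a surface protein of early lymphoid and B cells that some epithelia also express, was at 4.3, 2.3, 2.15 and 5.88 CPM in female CRE- livers and at 17, 27.4, 35 and 240 CPM in female LKO livers. Its groups did not overlap, and its highest library was female LKO 4, which was the lowest of the 16 for 4 of the 7 B and plasma cell genes. The log2 fold change was 4.45 (SE 0.74, higher in 4 of 4) with an edgeR adjusted p of 0.00646, and it stayed under the threshold in all 16 fits without 1 library. Without female LKO 4 it was 2.86. Cr2, the complement receptor of B cells and follicular dendritic cells, was at 0.222, 0.156, 0.144 and 0.0535 CPM in female CRE- livers and at 2.37, 0.399, 1.5 and 0.347 CPM in female LKO livers. These levels are low. Male CRE- livers ranged from 0.18 to 1.05 CPM, a range that takes in female LKO 2 and 4. Between the controls, female against male, the log2 fold change was -2.02 (SE 0.74, edgeR adjusted p = 0.266). The female log2 fold change of Cr2, LKO against CRE-, was 2.97 (SE 0.76, higher in 4 of 4, edgeR adjusted p = 0.0395). Without male LKO 3 or 4, any 1 of the female CRE- libraries, or female LKO 1 or 3, its edgeR adjusted p lay between 0.052 and 0.119. Btk, a kinase of B cell receptor signalling that myeloid cells also express, was at 2.62, 1.79, 1.68 and 3.74 CPM in female CRE- livers and at 20.8, 3.02, 9.11 and 6.16 CPM in female LKO livers. The log2 fold change was 1.99 (SE 0.51, higher in 4 of 4, edgeR adjusted p = 0.0395). Its call was lost, with an edgeR adjusted p between 0.0512 and 0.146, without male CRE- 1, male LKO 2, 3 or 4, any 1 of the female CRE- libraries, or female LKO 1 or 3.

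Other genes of plasma cells gave no call by edgeR with all libraries. Of 16, 15 were tested (Tnfrsf17 was too low), edgeR called 0 in either sex, and at an unadjusted p under 0.05 there were 2 lower in males and 2 higher and 2 lower in females. DESeq2 called 0 in males and 1 in females, Edem1, lower, and limma-voom called 0 and 1. The female edgeR count was 1 without male LKO 1 or female LKO 4. The median log2 fold change was -0.02 in males and 0.16 in females. Sdc1 and Xbp1, the 2 with the most reads, are also made by hepatocytes. Sdc1 was at 216, 277, 301 and 252 CPM in male CRE- livers and at 160, 165, 208 and 160 CPM in male LKO livers, which did not overlap, with a log2 fold change of -0.60 (SE 0.22, lower in 4 of 4, edgeR adjusted p = 0.352). In females that of Sdc1 was -0.50 (SE 0.22, lower in 4 of 4, edgeR adjusted p = 0.191), and the groups overlapped. Xbp1 ranged from 144 to 300.0 CPM over the 16 libraries, and its LKO and CRE- values overlapped in both sexes.

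Of 11 other antibody constant genes, 9 were tested and edgeR called 0 in either sex, with 0 in males and 3 in females at an unadjusted p under 0.05, 0 and 1 by DESeq2, and 0 and 3 by limma-voom. Ighe, the class of allergy, was at 0 in 10 libraries and highest in female LKO 3, at 2.1 CPM. Their median log2 fold change was -0.04 in males and 1.24 in females. Ighg2c, 1 of the gamma classes, was at 6.65, 2.3, 9.27 and 12.2 CPM in female CRE- livers and at 7.28, 31.2, 58.4 and 32.3 CPM in female LKO livers. Of the LKO livers, 3 were above every control and female LKO 1 was among them, with a log2 fold change of 2.09 (SE 0.66, higher in 3 of 4), an edgeR adjusted p of 0.0803 and a DESeq2 adjusted p of 0.0114. Igha spanned 2.51 CPM in male LKO 3 to 179 CPM in female LKO 3, and its log2 fold change was -1.13 (SE 0.96, lower in 3 of 4, edgeR adjusted p = 0.747) in males, -2.38 without male LKO 2 and -0.73 without male LKO 3.

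Pigr, the receptor that hepatocytes use to move polymeric antibody into bile, was named after its values were seen. It was at 1610, 1830, 1920 and 1670 CPM in male CRE- livers and at 838, 864, 1230 and 1060 CPM in male LKO livers. In female CRE- livers it was at 1810, 1980, 2150 and 1660 CPM, and in female LKO livers at 1170, 1310, 1420 and 897 CPM. The groups did not overlap in either sex. The log2 fold change was -0.82 (SE 0.19, lower in 4 of 4) in males, with an edgeR adjusted p of 0.0837 and a DESeq2 adjusted p of 0.00054. The female value was -0.66 (SE 0.19, lower in 4 of 4), with an edgeR adjusted p of 0.0575 and a DESeq2 adjusted p of 0.00604. The male edgeR adjusted p was 0.0464 without female LKO 4.

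Of the 9 genes for antibody transport and Fc receptors, Pigr included, edgeR called 0 in males (2 at an unadjusted p under 0.05, 1 by DESeq2, 1 by limma-voom) and 2 in females, both higher (4 at an unadjusted p under 0.05, 3 by DESeq2, 5 by limma-voom). These were Fcgr1 and Fcgr3, receptors of myeloid cells for gamma antibodies. Fcgr1 was at 9.32, 5.33, 4.88 and 7.11 CPM in female CRE- livers and at 59.1, 8.83, 20 and 18.2 CPM in female LKO livers, with a log2 fold change of 1.99 and an edgeR adjusted p of 0.0486. Fcgr3 was at 16.7, 11.2, 10.5 and 13.9 CPM in female CRE- livers and at 50, 18, 38.3 and 55.7 CPM in female LKO livers, with a log2 fold change of 1.63 and an edgeR adjusted p of 0.0414. Neither call held without male CRE- 1, male LKO 2, 3 or 4, any 1 of the female CRE- libraries, or female LKO 1, 3 or 4, nor that of Fcgr1 without male CRE- 2, where the edgeR adjusted p lay between 0.0512 and 0.197. The log2 fold change of Fcgr1 was 1.25 without female LKO 1. With male CRE- 1 and 4 as 1 sample, 1 of them was called.

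Of 12 ligands that attract or sustain B and plasma cells, 8 were tested and edgeR called 0 in either sex, with 1 lower in males and 2 higher and 2 lower in females at an unadjusted p under 0.05. DESeq2 and limma-voom each called 0 in males and 3 in females. Cxcl13, the chemokine that draws B cells into follicles, was at 15.7, 3.43, 4.12 and 8.77 CPM in female CRE- livers and at 143, 27.4, 153 and 70.1 CPM in female LKO livers. Those groups did not overlap, and the log2 fold change was 3.62 (higher in 4 of 4) with an edgeR adjusted p of 0.0891. In male CRE- livers Cxcl13 was at 32, 1.49, 0.624 and 43.5 CPM, high in replicates 1 and 4. Male LKO livers ranged from 6.6 to 119 CPM. The male log2 fold change was 0.90 (higher in 1 of 4, edgeR adjusted p = 0.822), and it turned to -1.19 without male LKO 1. Cxcl12, which retains plasma cells in marrow, had a female log2 fold change of -0.62 (lower in 4 of 4, edgeR adjusted p = 0.0781), and without female LKO 2 it was -0.83, with an edgeR adjusted p of 0.0188. In males that of Cxcl12 was -0.36 (lower in 4 of 4, without overlap, edgeR adjusted p = 0.582). Il7, a growth factor of early B cells, was named after its values were seen. It was at 4.48, 2.22, 1.72 and 4.76 CPM in female CRE- livers and at 1.06, 0.947, 0.695 and 0.983 CPM in female LKO livers, without overlap. Its female log2 fold change was -1.84 (SE 0.51, lower in 4 of 4, edgeR adjusted p = 0.0526), and the edgeR adjusted p was 0.0388 without male CRE- 3 and 0.03 without male LKO 1. In males that of Il7 was -1.2 (SE 0.53, lower in 4 of 4, edgeR adjusted p = 0.48). The male groups overlapped, at a control mean of 0.687 CPM.

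Markers of other cells moved in the same female LKO livers. Of 12 genes of cycling cells, which dividing B cells and many other cells share, edgeR called 7 higher in females (12 at an unadjusted p under 0.05, 12 by DESeq2, 10 by limma-voom), with a median log2 fold change of 1.90. Their summed level, led per length by Ube2c, was 17.3, 8.55, 26.1 and 15.4 CPM in male CRE- livers and 20.9, 14, 22.1 and 10.2 CPM in male LKO livers. In females it was 13.8, 13.4, 8.09 and 24.4 CPM in CRE- livers and 105, 24, 50.2 and 52.5 CPM in LKO livers, of which female LKO 1 was the highest. Bub1 was at 0 in 3 libraries and Ccnb2 in 1, none of them female LKO. The largest called change was that of Plk1, 2.76 (SE 0.62, higher in 4 of 4, edgeR adjusted p = 0.0261), and Top2a, Birc5, Ccnb1, Cdk1, Aurkb and Ube2c also rose. Without any 1 of the female CRE- libraries or without female LKO 1, the edgeR adjusted p of Plk1 lay between 0.0554 and 0.0846. The count was 0 without female CRE- 2 or 3 or female LKO 1, 1 without female CRE- 1, 2 without female CRE- 4, and 4 without male LKO 2 or female LKO 3 or 4. With male CRE- 1 and 4 as 1 sample the female edgeR adjusted p of Aurkb was 0.0543. In males edgeR called 0 of 12, with 1 at an unadjusted p under 0.05, 0 by DESeq2 and 0 by limma-voom.

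Of 10 macrophage genes, edgeR called 1 in females, Adgre1, higher (8 at an unadjusted p under 0.05, 7 by DESeq2, 9 by limma-voom), and 0 in males, with 0 at an unadjusted p under 0.05, 0 by DESeq2 and 0 by limma-voom. Adgre1 was at 31.3, 28.5, 28.7 and 34.2 CPM in female CRE- livers and at 334, 45.2, 99.4 and 64.9 CPM in female LKO livers, with a log2 fold change of 2.15 and an edgeR adjusted p of 0.0451. That call was lost, with an edgeR adjusted p between 0.0561 and 0.189, without male CRE- 1, male LKO 2, 3 or 4, any 1 of the female CRE- libraries, or female LKO 1 or 3, while 2 genes were called without male CRE- 3 and 5 without female LKO 2. Without female LKO 1 the log2 fold change of Adgre1 was 1.21. Summed over the list, led per length by Cd5l, the level was 1010, 543, 299 and 1520 CPM in male CRE- livers and 1360, 745, 833 and 765 CPM in male LKO livers. In females it was 886, 664, 735 and 1460 CPM in CRE- livers and 4230, 1120, 2610 and 1560 CPM in LKO livers. Female LKO 1, highest here, was also the highest of the 16 for Cd79b and Ms4a1. No macrophage gene was at 0 in any library.

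Of 8 neutrophil genes tested, edgeR called Retnlg, Mpo and Ngp higher in females (8 at an unadjusted p under 0.05, 7 by DESeq2, 3 by limma-voom) and 0 in males (7 lower at an unadjusted p under 0.05, 3 by DESeq2, 0 by limma-voom). Their summed level, led per length by S100a9, was 98.3, 20.6, 17.3 and 199 CPM in male CRE- livers and 26.8, 17, 13.5 and 12.6 CPM in male LKO livers. In females it was 39.1, 19.9, 16.9 and 19 CPM in CRE- livers and 143, 44.4, 77.6 and 669 CPM in LKO livers. Ly6g, a defining marker of neutrophils, was at 0 in 9 libraries, none of them female LKO. The library highest for these genes, female LKO 4, was the lowest for 4 of the 7 B and plasma cell genes. The female count was 0 without female CRE- 2, 3 or 4 or female LKO 1 or 4, 5 without male CRE- 4, 6 without male CRE- 2 or 3, and 7 without female LKO 2. The male count was 1, Ngp, without female LKO 4. With male CRE- 1 and 4 as 1 sample the female edgeR adjusted p of Ngp was 0.0555. Male CRE- 1 and 4, the pair that shared V segments, also held the most neutrophil RNA of the male controls. The part that macrophages, neutrophils or cycling cells had in the values of the B and plasma cell genes was not tested.

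Of 13 genes of T and NK cells, 0 passed in either sex by edgeR, by DESeq2 or at an unadjusted p under 0.05, while limma-voom called 0 in males and 1 in females, and the median of their log2 fold changes was -0.13 in males and 0.22 in females. Lck, a kinase of T cell receptor signalling, had a female log2 fold change of 0.18 (SE 0.42, higher in 2 of 4, edgeR adjusted p = 0.855), and Nkg7, of cytotoxic granules, had 0.28 (SE 0.50, higher in 3 of 4, edgeR adjusted p = 0.803). Without 1 library that of Lck ran from -0.03 (without female LKO 3) to 0.39 (without female LKO 4), and that of Nkg7 from 0.09 (without female CRE- 2) to 0.59 (without female CRE- 4). Their summed level was 13.6 to 41.2 CPM in female CRE- livers and 14.4 to 39.2 CPM in female LKO livers, the lowest being female LKO 4 within its group. Of 4 genes of all leukocytes, Laptm5 and Coro1a with the most reads, edgeR called 0 in either sex, with 0 in males and 3 in females at an unadjusted p under 0.05, 0 and 1 by DESeq2, and 0 and 2 by limma-voom. Of 8 dendritic cell genes, Bst2 and Zbtb46 with the most reads, edgeR called 0 in either sex, with 0 at an unadjusted p under 0.05, 0 by DESeq2 and 0 by limma-voom.

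Of 5 endothelial genes, edgeR called 1, Cdh5, higher in females by 0.79 on the log2 scale (SE 0.17, higher in 4 of 4, edgeR adjusted p = 0.0249), lost without female CRE- 2, 3 or 4 or female LKO 1, where the edgeR adjusted p was 0.0745, 0.0672, 0.0679 and 0.0588. It was 2 genes without female LKO 2. At an unadjusted p under 0.05 there were 3 in females, with 2 by DESeq2 and 1 by limma-voom. In males edgeR called 0 of 5, with 0 at an unadjusted p under 0.05, 0 by DESeq2 and 0 by limma-voom. Of 6 erythroid genes, Hbb-bs and Hba-a1 with the most reads, edgeR called 0 in either sex, with 5 lower in males and 0 in females at an unadjusted p under 0.05, 0 by DESeq2 and 0 by limma-voom. Of 8 hepatocyte genes, Alb and Apoa1 with the most reads, edgeR called 0 in either sex, with 2 lower in each sex at an unadjusted p under 0.05, and 0 in males and 1 in females, Alb, by DESeq2, and 0 and 1 by limma-voom. In females the point estimate was negative for 8 of 8, with a median of -0.62. Their summed level was 117000 to 137000 CPM in female CRE- livers and 54500 to 95700 CPM in female LKO livers, lowest in female LKO 1.

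The genes whose log2 CPM over the 16 libraries was most like the mean of the surface genes Cd79a, Cd79b and Ms4a1 were LOC101055672 (Pearson r = 0.938), H2-DMb2 (0.916), Ikzf2 (0.856), Cd2 (0.831), and P2ry10, Dtx1, Rab6b and Mbp (0.824 or more). H2-DMb2 encodes a chain of the peptide exchange factor of class II antigen presentation. It was highest in female LKO 1, at 12.2 CPM, and lowest in female LKO 4, at 1.76 CPM, as Ms4a1 was. The genes most like the mean of Jchain, Mzb1, Ighm and Igkc were LOC118568475 (0.865), Gm9734 (0.823), Cd247 (0.814), Ptprcap (0.809), Cnpy1 (0.793), Gzmk (0.781), Cpxm1 (0.776) and Sp140l2 (0.769). Cnpy1 was at 19.7 CPM in female LKO 3 and at most 0.568 CPM in the other 15 libraries, and Sp140l2 was at 17.4 CPM in that library and at most 3.81 CPM in the others. The r values of these 16 genes include that library. Spearman's rho was 0.659 to 0.912 for the 16 genes, and the edgeR adjusted p was at least 0.0987 in both sexes. The genes were picked for their correlation, so the r values are a description.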

How the data were processed

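Polyadenylated liver RNA of 4 mice in each of 4 groups was sequenced. The authors used STAR 2.7.1a for alignment to GRCm39 and featureCounts of Subread 2.0.6 for counting, and the deposited values are raw counts (each a count of reads on a gene in 1 library). The counts are of reads, not of fragments.

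Low genes were removed by filterByExpr at a minimum count of 10, and the rest were normalized by TMM and fitted together as 4 groups by the quasi-likelihood test of edgeR 4.0.16 in R 4.3.3, with Benjamini-Hochberg adjustment over all 16742 genes tested and a threshold of 0.05. On simulated counts of the 16742 genes with 200 changed 4-fold, the fit called 137 of the 200 and 3 others in the male comparison, and 133 and 3 in the female one. The SE is the fold change divided by the square root of the F statistic. Log2 CPM used a prior count of 2. Shares were compared by exact permutation of mice between groups (two-sided), adjusted over the 16 tests, with Wilson 95% intervals. Replicates are numbered as separate mice by the labels. Sequences were read from the GRCm39 genome. Python 3.11.15, pandas 2.3.3, numpy 2.4.6, scipy 1.17.1 and matplotlib 3.10.9 were used.

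The 7 genes and 14 further lists (other genes of B cells and of plasma cells, antibody constant genes, antibody transport and Fc receptors, supporting ligands, and markers of cycling cells, T and NK cells, macrophages, neutrophils, dendritic cells, erythroid cells, hepatocytes, endothelium and all leukocytes) were chosen with earlier results of these data known. Named were all 7 genes, each list gene with an adjusted p under 0.05, the 2 genes with the most reads of a list without one, and the 8 genes most like each set. The alternatives were DESeq2 1.42.0 and its size factors, limma 3.58.1 voom with sample quality weights, no filter, at least 10 counts in every library, each sex fitted alone, a replicate block, leaving out each library, thinning the V reads to 960 (Ighv) or 1847 (Igkv), Spearman correlation, group means subtracted, and, chosen after seeing the data, male CRE- 1 and 4 as 1 sample.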

Additional observations from a re-analysis of the deposited data

Results flagged for a closer look

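In 8 of 104 sets of 4 libraries, 1 library lay far from the other 3, with a gap that takes up most of the whole range by Dixon's 95% limit, where chance gives about 1 in 20. Ms4a1 was at 12.3 CPM in female CRE- 1, the highest of its group. Ly6d was at 2.5 CPM in male LKO 2, the lowest of its group, and at 240.0 CPM in female LKO 4, the highest of its group. Sdc1 was at 208.0 CPM in male LKO 3, above the other male LKO livers. Fcgr3 was at 24.6 CPM and Cxcl13 at 119.0 CPM in male LKO 1, both the highest of their group. The kappa share of light chain constant reads was 83.8% in male CRE- 2 and 90.1% in male LKO 1, each the lowest of its group.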

How the results depend on the processing

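Of 1494 alternatives over 80 results, 1326 kept the direction and the side of the threshold or stayed within 1.5 times the count, 41 gained and 67 lost calls, 4 moved, and 56 turned in sign, all of them values that had not passed. Each sex fitted alone cannot give the difference between the sexes or the comparison of the controls. Of the list genes, Tnfrsf17, Ighe, Iglc4, Il6, Lta, Il21, Cd40lg and Ly6g had too few reads to be tested. With 4 mice per group an exact permutation p of the shares cannot be under 0.0286. Except where a reason is given, the cause was not tested.

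The count of the 7 genes called stayed at 0 in both sexes and in both other comparisons under every alternative except limma-voom in females, which called 1 (Igkc, 1.42). Of all genes, in place of 76 in males and 710 in females, DESeq2 called 339 and 1809, limma-voom 148 and 1976, each sex fitted alone 119 in females from fewer libraries, and the pair of male CRE- 1 and 4 as 1 sample (chosen after seeing the data) 46 in males. In females DESeq2 called 6 of 30 other B cell genes, 1 of 15 plasma cell genes and 1 of 9 antibody constant genes, where 10.8% of all genes passed.

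The replicate block, with the replicate number as a factor, called 63 genes in males, 1244 in females and 0 of the 7 genes in either sex. In females it called 4 other B cell genes and 3 transport and Fc receptor genes, among them Pigr (edgeR adjusted p = 0.0272, and 0.0505 in males). Also called in females were 3 ligands, Cxcl13 (edgeR adjusted p = 0.0246), Cxcl12 (0.0393) and Il7 (0.0212). Further female calls were 4 macrophage genes, 6 neutrophil genes, 1 hepatocyte gene and 1 leukocyte gene, and in males the block called 1 erythroid gene. Between LKO and CRE- livers of the same number, the correlation after removing group means was 0.17, 0.17, 0.144 and -0.013 in males and 0.173, 0.105, 0.117 and 0.0281 in females. Of 16 libraries, 9 correlated best with their own number among the 4 libraries of the other genotype in their sex. The numbers were read as names only, and whether they mark pairs or batches of mice was not tested.

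Log2 fold changes that turned in sign were those of Cd79b in males (-0.000866 with DESeq2's size factors, -0.000846 by DESeq2, -0.0525 by limma-voom, -0.00533 with each sex fitted alone) and, by limma-voom, the sex differences of Mzb1 (0.58) and Ighm (0.49) and the control comparisons of Cd79a (-0.0131), Mzb1 (-0.0228) and Ighm (-0.16). That of Ighm was -0.0191 with the replicate block. With the pair as 1 sample, the sex difference of Cd79a was -0.0719, Jchain in males 0.0549 and the male gamma share 0.504 points. Thinned to equal depth, the female difference in the top Ighv share was -0.365 points. Of the 8 genes most like each set, 2 were also among the 8 by Spearman's rho and 4 with group means subtracted.

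Without 1 library, the count of all genes called ran from 26 to 111 in males and 87 to 1310 in females. In females it ran from 1 to 5 for other B cell genes, 0 to 1 for plasma cell genes, 0 to 2 for transport and Fc receptors, 0 to 1 for ligands, 0 to 9 for cycling cells, 0 to 5 for macrophages, 0 to 7 for neutrophils and 0 to 2 for endothelium. In males it ran from 0 to 1 for transport and for neutrophils. Log2 fold changes that turned in males were those of Cd79b (-0.18 to 0.185), Ms4a1 (-0.00622 to 0.41) and Jchain (-0.20 to 0.16). In females they were Cd79a (-0.0135 to 0.68), Ms4a1 (-0.20 to 1.04) and Mzb1 (-0.17 to 0.61). Sex differences that turned were Cd79a (-0.28 to 0.41), Ms4a1 (-0.34 to 0.89), Mzb1 (-0.63 to 0.15) and Igkc (-0.10 to 0.77), and control comparisons were Cd79b (-0.39 to 0.0642), Ighm (-0.12 to 0.33) and Igkc (-0.50 to 0.16). Differences in points that turned in males were those of the gamma share (-3.22 to 0.606), the kappa share (-1.51 to 2.40) and the top Ighv share (-1.45 to 2.60). In females they were the shares of Ighm (-11.9 to 4.43), kappa (-1.11 to 0.111), the top Ighv segment (-0.792 to 3.56) and the top Igkv segment (-4.84 to 3.48), and the effective Igkv number (-4.33 to 3.17 segments).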

Other observations

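Single livers carried high levels of single B cell genes, all named here after their values were seen. Pax5, the transcription factor that keeps B cell identity, was at 45.3 CPM in female LKO 1 and 19.1 CPM in male CRE- 3, and at most 6.11 CPM in the other libraries. Ighd, the delta class of naive B cells, was at 15.1 CPM in male LKO 4 and at most 8.41 CPM in the others. Male CRE- 2 held 403 reads of the lambda constant gene Iglc2 and female LKO 3 held 393 (8.98 and 7.19 CPM), where the others held at most 167 reads. In male CRE- 2 the kappa share was the lowest of the 16 libraries. In that library Iglv3 took 79.2% of 486 lambda V reads, where Iglv1 led in male CRE- 1, 3 and 4.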
